A study of Rattus norvegicus with 35 samples.

Results

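Triadimefon is a triazole fungicide. The effect of triadimefon at 100 uM, the highest of its 3 doses in the series, on primary rat hepatocytes was measured against the vehicle DMSO at 0.1%, the figure of the design text (the titles carry another number). Primary hepatocytes are liver parenchymal cells brought into culture from the organ, here exposed for 72 h through the medium. The 6 arrays of this comparison, 3 with triadimefon and 3 with DMSO, were chosen by their titles from 35 arrays in 12 groups. They were compared across all genes and within the codes of the titles, Rs256, Rs293 and Rs304, each of which marks 1 array in both groups. Triadimefon at 10 and 30 uM, propiconazole at 100 uM and myclobutanil at 100 uM, with 3 arrays each, served for dose and compound comparisons. Phenobarbital at 200 uM (3 arrays) and PCN at 30 uM (2 arrays) were the positive controls. The design text calls the arrays of a group biological replicates. The labels do not give the strain, the sex or the number of animals, nor what a code marks, so p-values measure the spread between these arrays.

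Triazole fungicides inhibit the fungal sterol demethylase Cyp51, and mammals carry the same enzyme in their own cholesterol pathway. Hepatocytes detect foreign compounds through sensors such as the pregnane X receptor (PXR) and the constitutive androstane receptor (CAR), which raise P450 enzymes, conjugating enzymes and efflux pumps. The hepatocyte also makes fatty acids and sterols under the SREBP transcription factors, and burns fatty acids under the receptor PPARalpha.

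Values are the deposited scores after quantile normalization, called units below. The scale is log-like with an unstated base, so differences in units are not folds. If the control transcripts bioC, bioD and cre had been added at 5, 25 and 100 pM, an RNA increase of 2 times would correspond to 0.498 units (SD 0.0206 over the 6 arrays). Changes are triadimefon minus DMSO from 1 limma fit over all 35 arrays with the code as a replicate block, each with its standard error (SE) and a Benjamini-Hochberg adjusted p over 10490 genes. A gene was called higher or lower when that adjusted p lay below 0.05. Array values are given in the order Rs256, Rs293, Rs304.

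With triadimefon at 100 uM, genes for the synthesis of unsaturated fatty acids and of sterols rose, among them Scd2, Fads2, Fads1 and Acat2. Targets of PXR rose, among them Cyp2c6v1, Cyp3a23-3a1 and the bile export pump Abcc2. Genes of fatty acid oxidation, targets of PPARalpha and genes of bile acid conjugation fell, among them Cyp4a1, Angptl4, Cpt1a and Baat. In all, 1239 of 10490 genes were called (11.8%), 646 of them higher (6.16%) and 593 lower (5.65%). Most changes were small: the median absolute change of the called genes was 0.214 units, and 101 of them moved by at least 0.5 units, 35 higher and 66 lower. Of the called genes, 1227 had 1 sign in all 3 codes, against 48.7% of all genes tested, and 832 did not overlap between the groups, against 20.2% of all genes tested. The calls rest on these same arrays and codes, so these counts are no separate check of them. The fit with no replicate block called 192 genes (1.83%), 91 higher (0.867%) and 101 lower (0.963%), and the values as deposited, without quantile normalization, gave 287 (149 higher, 138 lower). Without the arrays of code Rs304 298 genes were called, and without those of Rs256 675.

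The arrays carried the markers of their label. All 24 measured genes of hepatocyte function lay above the array median on at least 1 of the 6 arrays. The summed level of these 24 genes ran from 51.7 to 55.7 units with triadimefon and from 56.1 to 59.6 units with DMSO. Of the 24, 6 were called lower and 1 higher, with a median change of -0.10 units that became 0.07 units after median centring and scaling in place of quantile normalization. Gjb1, a gap junction protein of hepatocytes, stood at 1.75, 1.70 and 1.44 units with triadimefon, against 2.11, 2.13 and 2.32 units with DMSO, a change of -0.55 (SE 0.101, adjusted p = 0.000693). Of markers of other liver cells, 8 of 15 macrophage markers, 7 of 19 stellate cell markers, 11 of 13 endothelial markers and 2 of 9 cholangiocyte markers lay above the array median on none of the 6 arrays. Ptprc, Adgre1 and Cd163 of macrophages, Lrat and Col1a1 of stellate cells and Pecam1 and Stab2 of endothelium were among these. Most markers of stellate cells and of cholangiocytes did lie above the array median on at least 1 of the 6 arrays. The summed stellate cell markers ran from 1.4 to 2.84 units with triadimefon and from 1.17 to 4.35 units with DMSO, those of endothelium from -1.69 to -1.28 with triadimefon and from -2.09 to -1.53 with DMSO, and those of cholangiocytes from 2.24 to 3.05 with triadimefon and from 1.93 to 4.24 with DMSO. No gene of these 3 lists was called. In bulk RNA, fewer cells of a type and less RNA per cell cannot be told apart. The difference between the 3' and 5' probe sets of a gene, a sign of RNA quality, averaged 0.852 units with triadimefon and 0.766 units with DMSO for Actb (two-sided exact permutation p = 0.4, n = 3 each). For Gapdh it averaged 0.257 units with triadimefon and 0.188 units with DMSO (exact p = 0.2), and 3 against 3 cannot give a p below 0.1. By code, triadimefon minus DMSO was 0.0976, -0.00555 and 0.167 units for Actb, higher in 2 codes, and 0.0152, 0.0541 and 0.138 units for Gapdh, higher in all 3. With the values as deposited both genes were higher in all 3 codes, by 0.210, 0.105 and 0.0975 units for Actb and 0.0430, 0.0888 and 0.113 units for Gapdh. The permutation test did not use the codes. The part of RNA quality in the changes below was not tested.

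**Figure D1:**
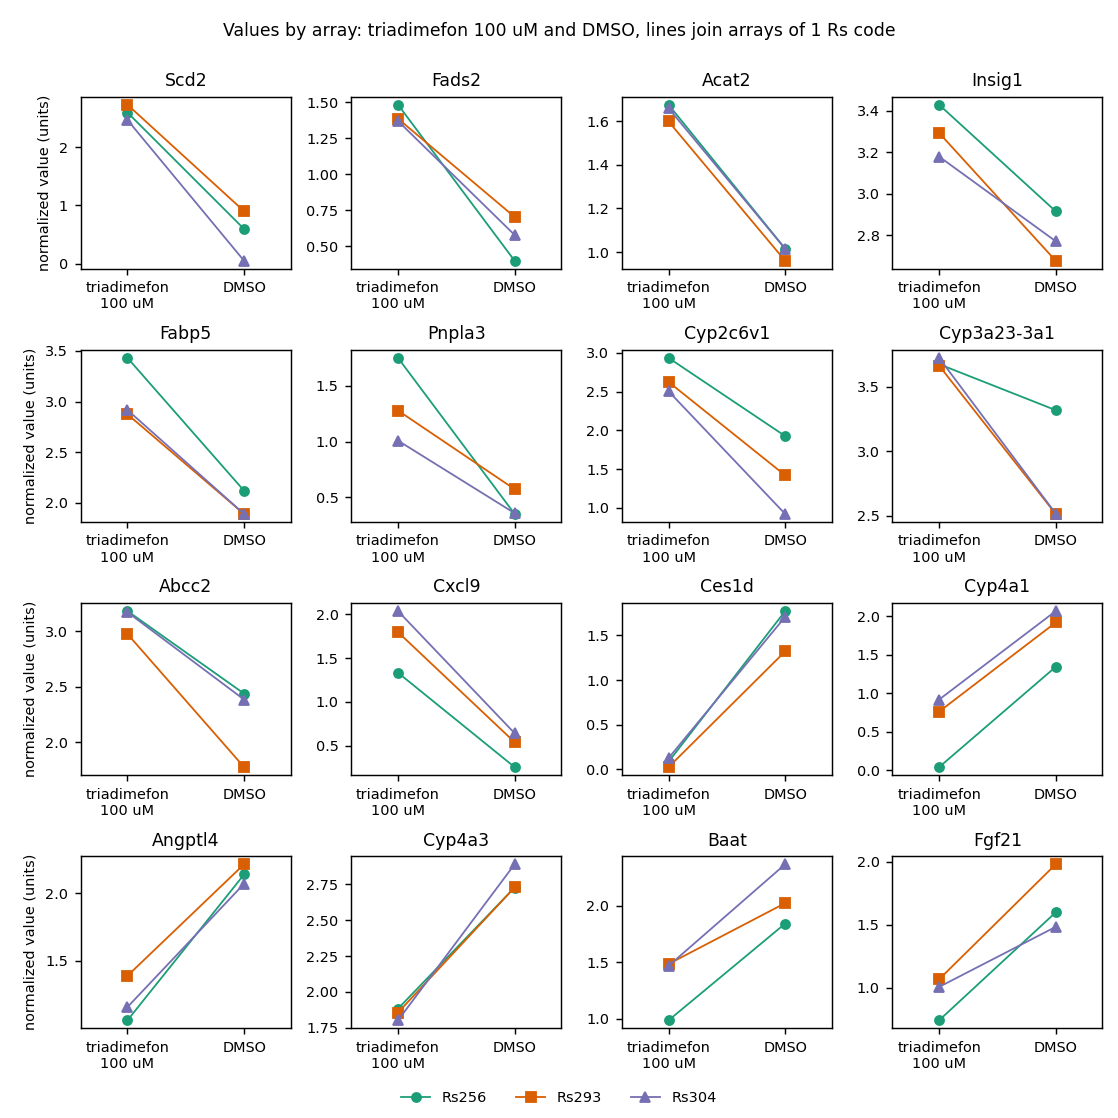
Quantile-normalized values (units, y axis) of 16 genes on the 3 triadimefon 100 uM and the 3 DMSO arrays, with a line joining the arrays of 1 code. In all panels the triadimefon arrays lie wholly above or wholly below the DMSO arrays, as for Scd2 (at least 2.46 units with triadimefon, at most 0.900 units with DMSO).

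Desaturases and elongases, which shape the unsaturation and length of fatty acids, held the largest rise among the genes tested, that of Scd2. Of the 9 tested, 6 were called higher and none lower, with a median change of 0.33 units beside 0.01 over all genes tested. With no replicate block 3 of the 9 were called higher, with the values as deposited 4, and without the arrays of Rs304 3. Scd2, a stearoyl-CoA desaturase that makes monounsaturated fatty acids, stood at 2.59, 2.73 and 2.46 units with triadimefon, against 0.594, 0.900 and 0.0493 units with DMSO, a change of 2.08 (SE 0.185, adjusted p = 1.69e-07). Fads2, the desaturase that opens the path to long polyunsaturated fatty acids, stood at 1.48, 1.39 and 1.37 units with triadimefon, against 0.398, 0.703 and 0.578 units with DMSO, a change of 0.85 (SE 0.0680, adjusted p = 3.22e-08). Fads1, which acts after it, stood at 2.50, 2.40 and 2.48 units with triadimefon, against 1.30, 1.82 and 1.73 units with DMSO, a change of 0.85 (SE 0.102, adjusted p = 1.71e-05). All 3 triadimefon arrays lay above all 3 DMSO arrays for these genes, and the DMSO array of Rs304 was the lowest for Scd2. The size of the Scd2 rise depended on the probe set: the 3 other Scd2 probe sets were also called higher, by 1.0, 0.44 and 0.44 units. Scd, the main stearoyl-CoA desaturase of liver, stood at 3.78, 3.84 and 3.75 units with triadimefon, against 3.62, 3.55 and 3.20 units with DMSO, and changed by 0.33 (SE 0.0737, adjusted p = 0.0035). Elovl6, which lengthens saturated and monounsaturated chains, changed by 0.41 (SE 0.0692, adjusted p = 0.000359). Elovl2 and Elovl5, elongases of polyunsaturated chains, were not called (-0.20 and 0.09 units). Uncalled list members such as these, here and below, were picked for their known roles after their values had been seen.

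Genes of fatty acid synthesis rose in part: 7 of 18 tested were called higher and none lower, with a median change of 0.19 units. Fits with no replicate block called 2 of them, with the values as deposited 3, and without the arrays of Rs304 4. Pnpla3, a lipid droplet protein whose gene is a known SREBP target, stood at 1.75, 1.28 and 1.01 units with triadimefon, against 0.352, 0.574 and 0.359 units with DMSO, a change of 0.92 (SE 0.122, adjusted p = 3.07e-05). Rs256 showed the largest of its within-code differences, and further Pnpla3 probe sets were called at 0.96 and 0.37 units. Fasn, fatty acid synthase, stood at 2.32, 2.56 and 2.45 units with triadimefon, against 1.74, 2.19 and 1.97 units with DMSO, a change of 0.48 (SE 0.0881, adjusted p = 0.000715). Acss2, which makes acetyl-CoA from acetate, changed by 0.55 (adjusted p = 3.07e-05), Aacs, which activates acetoacetate, by 0.37 (adjusted p = 0.000246), and Me1, malic enzyme, by 0.32 (adjusted p = 0.00461). The groups did not overlap for any of these 5 genes. Srebf1, the transcription factor that drives this pathway, stood at 1.72, 2.03 and 2.12 units with triadimefon, against 1.66, 1.84 and 1.72 units with DMSO and was not called (0.22, adjusted p = 0.0625). Acaca and Acly, which make malonyl-CoA and cytosolic acetyl-CoA, were not called either (0.19 and -0.08 units).

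Sterol synthesis rose along most of its length. Of 17 tested enzymes 11 were called higher and none lower, with a median change of 0.27 units, which read 0.48 in Rs256, 0.22 in Rs293 and 0.17 in Rs304. With no replicate block, and likewise with the values as deposited, 4 were called higher, and without the arrays of Rs304 8. Acat2, the cytosolic thiolase that starts the pathway, stood at 1.68, 1.60 and 1.66 units with triadimefon, against 1.02, 0.960 and 1.02 units with DMSO, a change of 0.65 (SE 0.0614, adjusted p = 4.25e-07). The arrays of each group lay close together, and the groups did not overlap. Cyp51, the mammalian counterpart of the fungicide's target, stood at 2.79, 2.62 and 2.62 units with triadimefon, against 2.18, 2.43 and 2.34 units with DMSO, a change of 0.36 (SE 0.0933, adjusted p = 0.0111). Its neighbours moved alike: Lss, lanosterol synthase, which acts before it, changed by 0.41 (adjusted p = 0.000324), and Tm7sf2, a sterol reductase that acts after it, by 0.56 (adjusted p = 2.59e-05). Pmvk of the mevalonate part changed by 0.36 (adjusted p = 0.000184) and the late desaturase Sc5d by 0.35 (adjusted p = 0.000172). None of these 5 overlapped between the groups, and Cyp51, Lss, Tm7sf2 and Pmvk were not called with no replicate block. With the values as deposited Cyp51, Pmvk and Sc5d were not called, while Lss and Tm7sf2 were. The call of Cyp51 was the least firm of the 5. It alone was also lost without the arrays of Rs256, without those of Rs304 and with the arrays of the groups compared alone. Dhcr7 and Nsdhl, other late enzymes, were not called (-0.09 and -0.06 units).

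Of 11 tested genes of sterol sensing, uptake and efflux 4 were called higher and none lower (median 0.07 units), and 1 was called with no replicate block and 1 with the values as deposited. Insig1, which holds the SREBP escort in the endoplasmic reticulum and is itself an SREBP target, stood at 3.43, 3.29 and 3.18 units with triadimefon, against 2.91, 2.68 and 2.77 units with DMSO, a change of 0.51 (SE 0.0654, adjusted p = 2.43e-05). Stard4, a cytosolic sterol carrier, changed by 0.27 (adjusted p = 0.000192), Npc2, which exports cholesterol from lysosomes, by 0.26 (adjusted p = 0.00512), and Scap, the SREBP escort, by 0.16 (adjusted p = 0.0232). The 4 were higher in every code, but a further Scap probe set differed by -0.01 units and a further Stard4 probe set by 0.03 units, neither of them called. Srebf2, the transcription factor of the sterol pathway, was at 1.13, 1.32 and 1.20 units with triadimefon, against 1.19, 1.18 and 1.23 units with DMSO, with overlapping groups and a change of 0.01 (adjusted p = 0.941). The transporters Abca1 and Abcg1, which export cholesterol, were not called (0.10 and 0.03 units).

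Targets of PPARalpha, the receptor that raises fatty acid burning during fasting, fell: 10 of 17 tested were called lower and none higher, with a median change of -0.40 units. All 17 fitted changes lay below 0. Fitted with no replicate block, 3 of the 17 were called lower, with the values as deposited 7, and without the arrays of Rs304 4. Cyp4a1, a fatty acid omega-hydroxylase, stood at 0.0425, 0.763 and 0.919 units with triadimefon, against 1.34, 1.92 and 2.07 units with DMSO, a change of -1.20 (SE 0.202, adjusted p = 0.000312). Cyp4a3, its relative, stood at 1.88, 1.86 and 1.80 units with triadimefon, against 2.73, 2.73 and 2.89 units with DMSO, a change of -0.94 (SE 0.166, adjusted p = 0.000468). Angptl4, a secreted inhibitor of lipoprotein lipase, stood at 1.06, 1.39 and 1.16 units with triadimefon, against 2.14, 2.21 and 2.07 units with DMSO, a change of -0.94 (SE 0.118, adjusted p = 2.05e-05). For each of these 3 genes every triadimefon array lay below every DMSO array. Fgf21, a hormone that the liver secretes in fasting, stood at 0.743, 1.07 and 1.01 units with triadimefon, against 1.60, 1.98 and 1.48 units with DMSO, a change of -0.75 (SE 0.102, adjusted p = 4.39e-05). Fabp1, the liver fatty acid binding protein, stood at 0.851, 0.887 and 1.05 units with triadimefon, against 1.37, 2.03 and 1.95 units with DMSO, a change of -0.85 (SE 0.199, adjusted p = 0.00524), and Vnn1, a pantetheinase, changed by -0.57 (adjusted p = 0.000193). The groups did not overlap for these 3 either. Ppara itself stood at 0.231, 0.143 and 0.0765 units with triadimefon, against 0.218, 0.133 and 0.337 units with DMSO, and was not called (-0.08, adjusted p = 0.522).

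Fatty acid oxidation in mitochondria and peroxisomes followed with smaller changes: 12 of 19 tested genes were called lower and none higher, with a median of -0.28 units. The 19 fitted changes all lay below 0, between -0.79 and -0.10 units. With no replicate block 3 were called lower, with the values as deposited 2, and without the arrays of Rs304 7. Cpt1a, the rate-limiting step of fatty acid entry into mitochondria, stood at 0.497, 0.617 and 0.772 units with triadimefon, against 0.722, 1.80 and 1.73 units with DMSO, a change of -0.79 (SE 0.174, adjusted p = 0.00338). Its fall was uneven, -0.23, -1.19 and -0.96 units by code, and the groups overlapped, with the DMSO array of Rs256 among the triadimefon arrays. A further Cpt1a probe set was called at -0.31 units. The call of Cpt1a was lost with no replicate block and with the arrays of the groups compared alone. It was also lost without the arrays of Rs293 and without those of Rs304. Hadh, a dehydrogenase of the oxidation cycle, stood at 2.08, 2.32 and 2.23 units with triadimefon, against 2.68, 2.67 and 2.64 units with DMSO, a change of -0.45 (SE 0.0715, adjusted p = 0.000189). Eci1, an enoyl-CoA isomerase for unsaturated chains, stood at 2.20, 2.38 and 2.51 units with triadimefon, against 2.65, 2.91 and 3.05 units with DMSO, a change of -0.50 (SE 0.0784, adjusted p = 0.000172). Decr1, a reductase for unsaturated chains, changed by -0.46 (adjusted p = 0.00036), Etfdh, which passes electrons on to the respiratory chain, by -0.41 (adjusted p = 0.001), and Acadl, a long-chain dehydrogenase, by -0.28 (adjusted p = 0.000335). The groups were apart for these 5. The respiratory chain showed 1 called gene of 25, Uqcrfs1, at -0.15 (adjusted p = 0.0391), a change that read 0.00019 units after median centring and scaling.

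Among 17 tested genes of lipid droplets and triglyceride turnover 4 were called lower and none higher (median -0.12 units), and 1 was called with no replicate block. Ces1d, a carboxylesterase that hydrolyses triglycerides, showed the largest fall among the genes tested. It stood at 0.0833, 0.0226 and 0.124 units with triadimefon, against 1.77, 1.32 and 1.71 units with DMSO, a change of -1.52 (SE 0.202, adjusted p = 3.07e-05). The triadimefon arrays lay near the array median, and the DMSO arrays well above it. Cidec, which fuses lipid droplets, changed by -0.48 (adjusted p = 0.000339), Lipc, hepatic lipase, by -0.24 (adjusted p = 0.00959), and Plin5, a droplet coat protein, by -0.18 (adjusted p = 0.0257). Plin2, the common droplet coat protein, was not called (-0.12 units). Of 18 apolipoproteins and lipoprotein assembly genes 4 were called higher and 4 lower, with a median of -0.04 units that read 0.04 with the values as deposited. Calls were 0 higher and 2 lower with no replicate block, 0 and 1 with the values as deposited, and 0 and 4 without the arrays of Rs304. Apoa5, a regulator of plasma triglycerides, changed by -0.57 (adjusted p = 0.00137) and Lcat, which esterifies plasma cholesterol, by -0.60 (adjusted p = 0.00187), each with groups that did not overlap. Apoa1, the main protein of high-density lipoprotein, changed by 0.19 (adjusted p = 0.000839) and Apoa4 by 0.25 (adjusted p = 0.00885), each with overlapping groups. Apoh changed by -0.28 (adjusted p = 0.00037).

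Targets of PXR rose: 6 of 8 tested were called higher and none lower, with a median of 0.48 units, and 3 were called with no replicate block, 4 with the values as deposited and 3 without the arrays of Rs256. The promoters of 3 of these genes are shown because each holds paired copies of a hexamer in an arrangement that PXR is known to bind. They come from RefSeq (GRCr8), 250 bases before to 50 after the gene start, and capitals mark the hexamers AGTTCA or, on the other strand, TGAACT. The windows are chr12:14398754-14399053 on the minus strand for Cyp3a23-3a1, chr12:14343808-14344107 on the minus strand for Cyp3a2 and chr1:252613625-252613924 on the plus strand for Abcc2.
Cyp3a23-3a1: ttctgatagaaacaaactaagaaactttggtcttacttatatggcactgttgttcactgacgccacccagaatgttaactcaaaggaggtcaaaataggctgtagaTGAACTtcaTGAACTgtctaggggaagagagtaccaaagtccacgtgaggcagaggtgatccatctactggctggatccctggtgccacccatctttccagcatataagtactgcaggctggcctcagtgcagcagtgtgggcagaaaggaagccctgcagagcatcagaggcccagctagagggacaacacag
Cyp3a2: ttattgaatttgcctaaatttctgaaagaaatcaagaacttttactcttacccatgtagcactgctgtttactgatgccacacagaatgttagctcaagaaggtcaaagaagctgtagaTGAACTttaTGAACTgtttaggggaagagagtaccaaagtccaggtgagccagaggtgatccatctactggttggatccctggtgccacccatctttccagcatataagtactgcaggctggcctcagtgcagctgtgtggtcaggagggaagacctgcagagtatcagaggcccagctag
Abcc2: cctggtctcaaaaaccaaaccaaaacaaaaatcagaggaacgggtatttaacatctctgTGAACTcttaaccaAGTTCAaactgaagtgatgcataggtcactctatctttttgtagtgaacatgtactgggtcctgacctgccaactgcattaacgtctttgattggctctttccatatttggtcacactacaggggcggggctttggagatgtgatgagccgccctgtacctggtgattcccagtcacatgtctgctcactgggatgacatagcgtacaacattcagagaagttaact
The direct repeat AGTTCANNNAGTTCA was found on either strand in 2 of 33469 promoter windows (0.00598%), those of Cyp3a23-3a1 and Cyp3a2. The everted repeat TGAACTNNNNNNNNAGTTCA was found in 1 (0.00299%), that of Abcc2. In all, 4 arrangements were searched. The direct repeat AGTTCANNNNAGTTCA was in 4 windows and the everted repeat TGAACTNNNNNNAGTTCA in 0, none of them in a window of a gene described here. These matches describe letters and not binding. The 3 promoters are shown because they hold a match, so the shares of windows are a description only. The part of PXR in these rises was not tested. The Cyp3a promoter windows were 80.6% identical, and the transcripts of such close relatives may not be told apart by their probe sets.

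Cyp3a23-3a1, a main drug-metabolizing P450 of rat liver, stood at 3.68, 3.66 and 3.72 units with triadimefon, against 3.32, 2.52 and 2.52 units with DMSO, a change of 0.90 (SE 0.154, adjusted p = 0.000344). The triadimefon arrays were level, and the smaller difference in Rs256 (0.36, 1.15 and 1.21 units by code) came with the brightest DMSO array. Cyp3a2 stood at 0.799, 0.407 and 0.265 units with triadimefon, against 0.133, -0.271 and -0.269 units with DMSO, a change of 0.63 (SE 0.141, adjusted p = 0.00403). Abcc2, the pump that exports conjugates into bile, stood at 3.18, 2.98 and 3.17 units with triadimefon, against 2.44, 1.78 and 2.39 units with DMSO, a change of 0.91 (SE 0.150, adjusted p = 0.000269). Cyp2c6v1, a P450 that both PXR and CAR activators raise, stood at 2.94, 2.63 and 2.51 units with triadimefon, against 1.93, 1.42 and 0.923 units with DMSO, a change of 1.27 (SE 0.128, adjusted p = 1.22e-06). Abcb1a, a drug efflux pump, changed by 0.33 (SE 0.0703, adjusted p = 0.00277). None of these genes overlapped between the groups. Slco1a4, an uptake transporter counted among PXR targets, was not called (0.00 units). Nr1i2, the gene of PXR, stood at 1.06, 1.02 and 0.832 units with triadimefon, against 1.33, 0.951 and 1.10 units with DMSO and was not called (-0.16, adjusted p = 0.294).

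Of 10 tested CAR targets, which include Cyp2c6v1, 4 were called higher and 1 lower, with a median of 0.10 units, and 2 were called with no replicate block. Ugt2b1, a glucuronosyltransferase, stood at 2.82, 3.09 and 3.12 units with triadimefon, against 2.55, 2.31 and 2.50 units with DMSO, a change of 0.56 (SE 0.0984, adjusted p = 0.000483). Por, which supplies electrons to all microsomal P450s, changed by 0.28 (adjusted p = 0.0145), and a further Por probe set differed by 0.21 units without being called. Gadd45b, a growth arrest protein, changed by 0.54 (adjusted p = 0.00367) with overlapping groups, and Aldh1a1, a retinal dehydrogenase, by -0.42 (adjusted p = 0.0129). Nr1i3, the gene of CAR, was not called at -0.27 (adjusted p = 0.0524). Values for Cyp2b1, Cyp2b2 and Ugt1a1 are not analysed here. Of 6 tested targets of the aryl hydrocarbon receptor, which senses planar aromatics, 1 was called. Cyp1a1, its classical target, stood at 3.26, 3.15 and 3.09 units with triadimefon, against 3.25, 3.06 and 3.24 units with DMSO, a change of -0.01 (adjusted p = 0.943). Cyp1a2 stood at 3.08, 1.92 and 1.49 units with triadimefon, against 2.53, 1.01 and 1.23 units with DMSO and was not called (0.57, adjusted p = 0.114). Nqo1, a quinone reductase, was called at 0.32 (adjusted p = 0.0175) although it was lower with triadimefon in Rs293, and it was not called with no replicate block.

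The constitutive P450s of the Cyp2 and Cyp4f families went the other way where they moved: 5 of 20 tested were called lower and none higher (median -0.06 units), 2 with no replicate block and 5 with the values as deposited. Cyp2d3 stood at 0.862, 0.516 and 0.650 units with triadimefon, against 1.71, 1.33 and 1.37 units with DMSO, a change of -0.79 (SE 0.149, adjusted p = 0.000851). Cyp2j3 and Cyp2j4, epoxygenases of arachidonic acid, changed by -0.53 (adjusted p = 0.00118) and -0.49 (adjusted p = 0.000895). Cyp2a2 changed by -0.55 (adjusted p = 1.26e-05) and Cyp2c13 by -0.40 (adjusted p = 0.000369). The groups did not overlap for Cyp2d3, Cyp2j3, Cyp2j4 and Cyp2c13, while those of Cyp2a2 did. Cyp2c11, the main P450 of the adult male rat liver, stood at 2.56, 2.81 and 2.82 units with triadimefon, against 2.78, 2.64 and 2.96 units with DMSO and was not called (-0.06, adjusted p = 0.672).

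Conjugating enzymes moved in different directions after quantile normalization. Of 20 glutathione S-transferases 5 were called higher and none lower (median 0.03 units), and 2 of these were called with no replicate block. Gstk1, the mitochondrial and peroxisomal form, stood at 2.01, 2.21 and 2.01 units with triadimefon, against 1.54, 1.26 and 1.29 units with DMSO, a change of 0.72 (SE 0.125, adjusted p = 0.000409), and Gsta4, which conjugates lipid peroxidation aldehydes, at 2.35, 2.53 and 2.49 units with triadimefon, against 1.81, 2.07 and 1.76 units with DMSO, a change of 0.58 (SE 0.100, adjusted p = 0.000386). Neither overlapped between the groups. Gstp1 changed by 0.70 (adjusted p = 0.0112), but its arrays of Rs293 stood at 2.08 units in both groups. Of 7 sulfotransferase genes 2 were called lower and 1 higher. Sult1a1, a phenol sulfotransferase, changed by -0.42 (adjusted p = 0.000286), and Sult1b1, which sulfates thyroid hormones, by -0.33 (adjusted p = 0.00616), both with groups apart, while Papss1, which makes the sulfate donor, changed by 0.13 (adjusted p = 0.0296). Of 9 glucuronosyltransferase and sugar supply genes Ugt2b1 was called higher and Ugt2b lower (-0.30, adjusted p = 0.0192). With the values as deposited, and likewise after median centring, 1 glutathione S-transferase was called higher and no gene of the other 2 lists. After centring and scaling none of the 3 lists held a call. Members of these families share sequence, so probe sets of close relatives may not be told apart.

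Targets of NRF2, the oxidant sensor, were called higher in 8 of 21 cases and lower in none (median 0.22 units). None of them was called with no replicate block in the limma fit, 2 were with the values as deposited, and 2 without the arrays of Rs304. Hmox1, which breaks down heme, stood at 3.02, 2.20 and 2.16 units with triadimefon, against 2.50, 1.35 and 1.38 units with DMSO, a change of 0.72 (SE 0.108, adjusted p = 0.000138). Its within-code differences were 0.53, 0.85 and 0.78 units, and the groups overlapped, with both arrays of Rs256 high. Srxn1, sulfiredoxin, behaved alike, with 3.10, 2.08 and 2.10 units with triadimefon, against 2.55, 1.64 and 1.73 units with DMSO, a change of 0.45 (SE 0.0717, adjusted p = 0.000215). Tkt, transketolase, changed by 0.42 (adjusted p = 0.00364). In the heme list 4 of 16 were called higher and 1 lower: Fech, which inserts iron into heme, changed by -0.25 (adjusted p = 0.000172), Blvrb, a biliverdin reductase, by 0.28 (adjusted p = 0.0109) and Cyb5a, an electron carrier to P450s, by 0.18 (adjusted p = 0.0202). Alas1, the rate-limiting enzyme of heme synthesis, stood at 1.81, 1.99 and 2.08 units with triadimefon, against 1.98, 2.10 and 2.33 units with DMSO and was not called (-0.18, adjusted p = 0.52).

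Bile acid synthesis and conjugation fell: 7 of 15 tested genes were called lower and none higher, with a median of -0.19 units. Without the block 3 were called lower and with the values as deposited 4. Baat, which joins bile acids to glycine or taurine, stood at 0.987, 1.48 and 1.47 units with triadimefon, against 1.84, 2.02 and 2.37 units with DMSO, a change of -0.76 (SE 0.126, adjusted p = 0.000283). Slc27a5, the bile acid CoA ligase that acts before it, stood at 0.0838, 0.759 and 0.530 units with triadimefon, against 0.798, 1.54 and 1.57 units with DMSO, a change of -0.84 (SE 0.183, adjusted p = 0.00304). Slc27a2, a very long-chain acyl-CoA synthetase, stood at 1.65, 1.77 and 2.05 units with triadimefon, against 2.54, 2.58 and 2.87 units with DMSO, a change of -0.84 (SE 0.109, adjusted p = 2.9e-05). Each of the 3 was lower in every triadimefon array than in any DMSO array. Cyp8b1, the hydroxylase that sets the share of cholic acid, stood at 0.642, 0.00318 and 0.0327 units with triadimefon, against 1.94, 0.698 and 0.811 units with DMSO, a change of -0.92 (SE 0.166, adjusted p = 0.000552). Its Rs256 arrays were brighter than those of the other codes in both groups. Akr1d1, a steroid reductase of the pathway, changed by -0.31 (adjusted p = 0.00118) and Scp2, a peroxisomal thiolase and sterol carrier, by -0.21 (adjusted p = 0.000538). Cyp7a1, the rate-limiting enzyme, stood near the array median, at -0.284, 0.210 and 0.0689 units with triadimefon, against 0.0250, 0.0656 and 0.284 units with DMSO, and was not called (-0.13, adjusted p = 0.809).

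Of 17 drug and bile acid transporters 2 were called lower, the uptake transporters Slco1a1 at -0.51 (adjusted p = 0.00025) and Slco1b2 at -0.28 (adjusted p = 0.00122), and 2 higher, the efflux pumps Abcc2 and Abcb1a. The median was 0.00 units, and with no replicate block 1 was called lower and 1 higher. The groups did not overlap for any of the 4. Slc10a1, the bile acid uptake transporter, was not called (-0.32 units), nor was Abcb11, the bile salt export pump (0.20 units). Of 11 steroid hormone genes 3 were called lower and none higher, Akr1d1 besides Hsd3b5 (-0.26, adjusted p = 0.0434) and Hsd17b10 (-0.21, adjusted p = 0.0285). Sult1e1, estrogen sulfotransferase, was not called (-0.13, adjusted p = 0.448).

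Of 21 retinoid metabolism genes 7 were called lower and 1 higher (median -0.04 units), and 1 was called with no replicate block. Rdh7, a retinol dehydrogenase, stood at 1.23, 0.882 and 0.740 units with triadimefon, against 2.18, 1.78 and 1.48 units with DMSO, a change of -0.86 (SE 0.143, adjusted p = 0.000296), with groups apart. Retsat, retinol saturase, changed by -0.57 (adjusted p = 0.000301) and Rdh10, which makes retinal, by -0.22 (adjusted p = 0.0012). Stra6l, a receptor for the plasma retinol carrier, changed by 0.33 (adjusted p = 0.000609), and that carrier, Rbp4, by -0.24 (adjusted p = 0.00588), which read 0.04 units after median centring and scaling.

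Plasma proteins of hepatocyte origin were lower in part. Of 29 complement and coagulation genes 11 were called lower and 1 higher, with a median of -0.16 units, and 3 were called lower with no replicate block, 3 with the values as deposited and 9 without the arrays of Rs304. F9, a coagulation factor, stood at 2.30, 2.07 and 2.01 units with triadimefon, against 2.86, 2.61 and 2.61 units with DMSO, a change of -0.57 (SE 0.0906, adjusted p = 0.000213). C6 and C8b, parts of the membrane attack complex, changed by -0.37 (adjusted p = 0.000301) and -0.56 (adjusted p = 0.000252), F12 by -0.41 (adjusted p = 0.000323) and Masp1, a protease of the lectin pathway, by -0.35 (adjusted p = 0.00012). The groups did not overlap for F9, C6, C8b and F12 but did for Masp1. Hrg, histidine-rich glycoprotein, changed by -0.81 (adjusted p = 0.00016), and Mug1, a macroglobulin-type protease inhibitor, stood at 0.383, 1.09 and 0.485 units with triadimefon, against 1.42, 1.85 and 1.39 units with DMSO, a change of -0.90 (SE 0.163, adjusted p = 0.000583).

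Of 23 acute phase genes 2 were called higher and 6 lower, with a median of -0.04 units, which read 0.11 with the values as deposited. Lcn2, an iron-binding protein of inflammation, stood at 3.02, 3.21 and 2.38 units with triadimefon, against 1.76, 2.94 and 1.84 units with DMSO, a change of 0.69 (SE 0.163, adjusted p = 0.0059), with 1.26, 0.26 and 0.55 units by code and overlapping groups. Serpina3c, a protease inhibitor, changed by 0.46 (adjusted p = 0.000339). The bright plasma proteins Ahsg (-0.24, adjusted p = 0.000386), Hp (-0.17, adjusted p = 0.00465) and Hpx (-0.15, adjusted p = 0.00537) were called lower after quantile normalization only by small amounts, and their direction turned under other scalings: Hp and Hpx read 0.13 units each, and Ahsg 0.04, after median centring and scaling. The brightest 1049 of the tested genes had a median change of 0.00 units after quantile normalization, 0.10 as deposited and 0.16 after centring and scaling, so small falls of bright genes depend on the scaling.

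Of 23 chemokine and interferon genes 2 were called higher and none lower (median 0.01 units). Cxcl9, a chemokine that draws T cells and is induced by interferon gamma, stood at 1.33, 1.80 and 2.04 units with triadimefon, against 0.254, 0.539 and 0.641 units with DMSO, a change of 1.24 (SE 0.169, adjusted p = 4.1e-05). All 3 triadimefon arrays lay above all DMSO arrays, and a further Cxcl9 probe set rose by 1.18 units (adjusted p = 1.94e-05). Other interferon targets were not called, with -0.37 units for Isg15, -0.10 for Ifit1, 0.00 for Cxcl10 and 0.01 for Irf1. Psmb9, an immunoproteasome subunit, changed by 0.25 (adjusted p = 0.00921). Defb1, an epithelial defensin, stood at 1.52, 1.14 and 1.19 units with triadimefon, against 0.977, 0.296 and 0.122 units with DMSO, a change of 0.82 (SE 0.207, adjusted p = 0.00972), and was not called with no replicate block.

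Of 29 genes of endoplasmic reticulum stress and ATF4 5 were called higher and 1 lower (median 0.10 units), and none with no replicate block. Ddit3, a transcription factor of this stress, changed by 0.31 (adjusted p = 0.013), Ppp1r15a, its phosphatase subunit, by 0.40 (adjusted p = 0.00546) and the chaperone cofactor Sdf2l1 by 0.40 (adjusted p = 0.00175), while the chaperone Hsp90b1 changed by -0.30 (adjusted p = 0.00558). Hspa5, the central chaperone, was not called (-0.05 units). Of 14 p53 and growth arrest genes 2 were called higher: Gadd45b and Sfn, a cell cycle checkpoint protein, at 0.747, 0.0711 and 0.689 units with triadimefon, against 0.187, -0.0366 and 0.0388 units with DMSO, a change of 0.44 (SE 0.0702, adjusted p = 0.000215). Sfn rose mostly in Rs256 and Rs304, and its groups overlapped. Cdkn1a, the classical p53 target, was not called (0.08 units). Of 15 cell cycle genes 1, Ccne1, was called (0.12, adjusted p = 0.0143).

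Lysosomal genes were called higher in 12 of 25 cases and lower in none (median 0.14 units), but in 2 with no replicate block, 2 with the values as deposited and 2 without the arrays of Rs304. Tpp1, a peptidase, stood at 1.87, 1.88 and 2.07 units with triadimefon, against 1.65, 1.59 and 1.74 units with DMSO, a change of 0.28 (SE 0.0527, adjusted p = 0.000986), and Ctsd, a cathepsin, changed by 0.27 (adjusted p = 0.00428). Mcoln1, a lysosomal channel, changed by 0.24 (adjusted p = 0.00367), with the groups of all 3 apart. Gpnmb, a lysosomal membrane glycoprotein, changed by 0.51 (adjusted p = 0.000801) and Cd68, found in lysosomes and a marker of macrophages, by 0.39 (adjusted p = 0.00338), both with overlapping groups. The 15 measured macrophage markers summed to between 0.484 and 2.93 units with triadimefon and between 0.129 and 2.46 units with DMSO, and Cd68 was the 1 member called of 7 tested. The part of macrophages in the lysosomal change was not tested.

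Amino acid catabolism and the urea cycle held 10 lower and 3 higher calls among 35 genes (median -0.12 units), and 2 lower calls with no replicate block. Ftcd, which breaks down histidine, changed by -0.60 (adjusted p = 0.00364), Kynu and Tdo2, which break down tryptophan, by -0.54 (adjusted p = 0.00561) and -0.39 (adjusted p = 0.00252), Glud1, glutamate dehydrogenase, by -0.35 (adjusted p = 0.00178) and Arg1, the last enzyme of the urea cycle, by -0.30 (adjusted p = 0.00469). The groups were apart for all of these but Tdo2. Of 27 glucose and glycogen genes 5 were called higher and 2 lower, with a median of -0.02 units that read 0.08 with the values as deposited. Calls were 0 higher and 2 lower with no replicate block, 0 and 0 with the values as deposited or after median centring, with or without scaling, and 0 and 1 without the arrays of Rs304. Fbp1 and Slc37a4, both of glucose output, changed by -0.41 (adjusted p = 0.000515) and -0.53 (adjusted p = 0.00475), and Slc2a1, a glucose transporter, and Pgd, of the pentose phosphate path, by 0.31 (adjusted p = 0.00997) and 0.22 (adjusted p = 0.0203). In the growth hormone and IGF axis 3 of 15 were called lower and 3 higher. Ghr, the growth hormone receptor, changed by -0.48 (adjusted p = 0.0066), Igf1, its main hepatic product, by -0.34 (adjusted p = 0.0178) and Igfbp2, an IGF carrier, by 0.35 (adjusted p = 0.00375). None of these 3 was called with no replicate block.

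Of 27 nuclear receptors and their partners Ppard alone was called, at 0.26 (adjusted p = 0.00334), and of 10 ribosomal protein genes none (median 0.04 units). Among 25 cytoskeleton genes and genes of hepatocyte dedifferentiation in culture Cldn1, a tight junction protein, changed by -0.49 (adjusted p = 0.00148), Lgals3, a galectin, by 0.40 (adjusted p = 0.00606) and Tubb6, a tubulin, by 0.27 (adjusted p = 0.0228). Of 10 genes of thyroid hormone metabolism and response Sult1b1 and Me1 were called. The share of called members in each list is plotted beside the share over all genes.

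**Figure D2:**
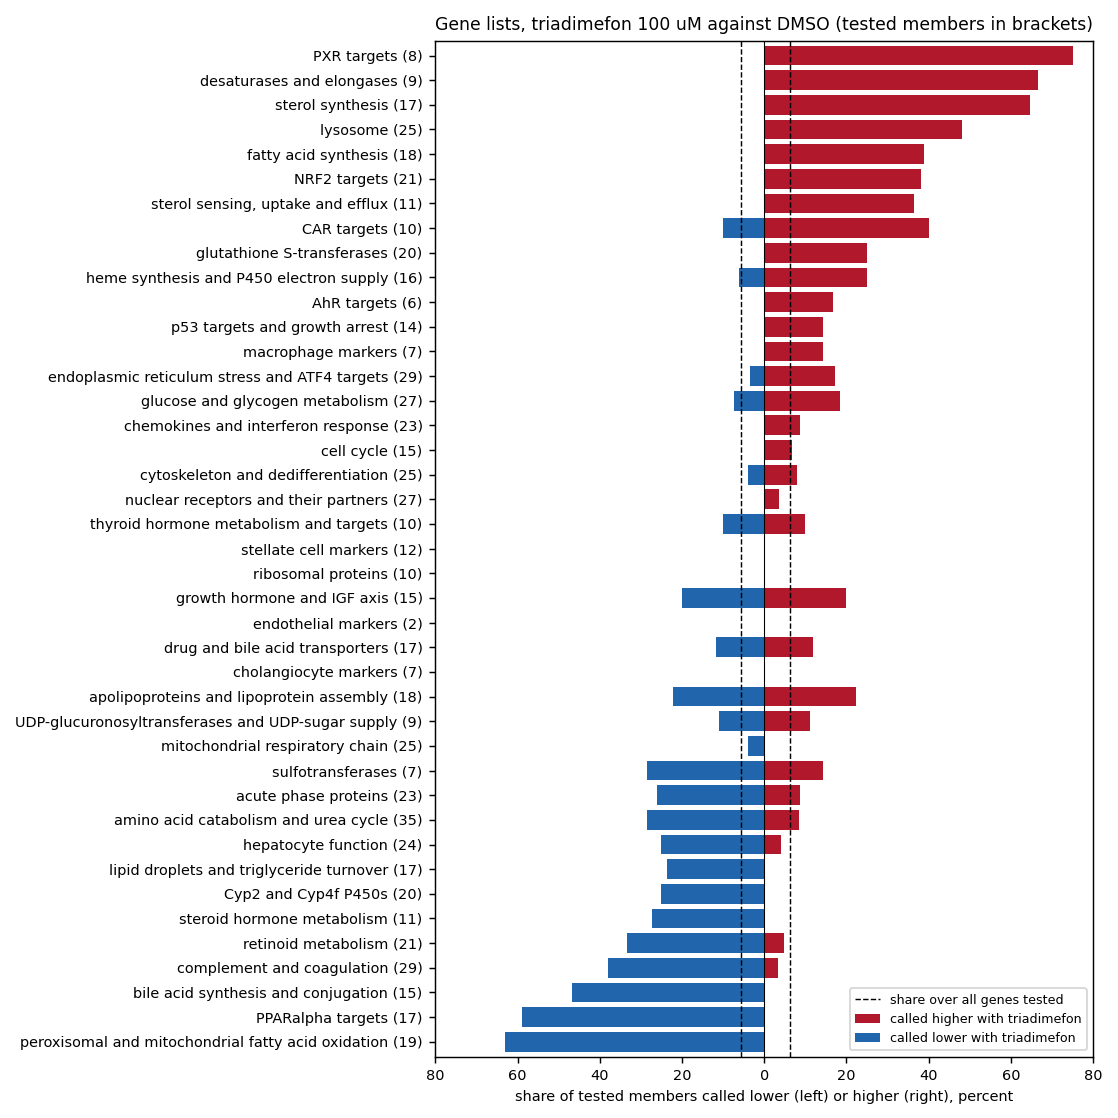
Share (percent) of the tested members of each list called higher (right) or lower (left) with triadimefon 100 uM against DMSO, with the number tested in brackets and the share over all genes tested (6.16% higher, 5.65% lower) as broken lines. PXR targets, desaturases and sterol synthesis lie farthest to the right, and fatty acid oxidation, PPARalpha targets and bile acid genes farthest to the left.

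Several of the largest changes lay outside these lists. Fabp5, a fatty acid binding protein of many epithelia, stood at 3.43, 2.88 and 2.92 units with triadimefon, against 2.12, 1.89 and 1.89 units with DMSO, a change of 1.11 (SE 0.119, adjusted p = 2.73e-06). Cdh13, a cadherin that binds adiponectin, stood at 1.43, 0.603 and 0.915 units with triadimefon, against 0.189, 0.188 and 0.266 units with DMSO, a change of 0.77 (SE 0.135, adjusted p = 0.000459). Grk5, a kinase of G protein-coupled receptors, stood at 0.936, 0.603 and 0.666 units with triadimefon, against 0.178, -0.0314 and -0.0501 units with DMSO, a change of 0.70 (SE 0.119, adjusted p = 0.000324). The triadimefon arrays were above the DMSO arrays in each case, as they were for Ampd3, an AMP deaminase, whose change of 0.70 (adjusted p = 0.0101) ranged widely by code (1.25, 0.19 and 0.67 units). Lox, which cross-links collagen, stood at 1.17, 0.0336 and 0.271 units with triadimefon, against 2.47, 0.696 and 0.890 units with DMSO, a change of -0.86 (SE 0.171, adjusted p = 0.00144), and Omd, a matrix proteoglycan, at -0.200, 0.684 and 0.723 units with triadimefon, against 0.470, 1.5 and 1.63 units with DMSO, a change of -0.80 (SE 0.138, adjusted p = 0.000402). Both fell in each code while the groups overlapped, and Rs256 stood apart from the other codes in both groups. Stellate cell markers, a list that holds neither gene, had no call among 12 tested, with fitted changes from -0.45 to 0.02 units. The part of stellate cells in the falls of Lox and Omd was not tested. Lox, Omd and Grk5 were not called with no replicate block.

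**Figure D3:**
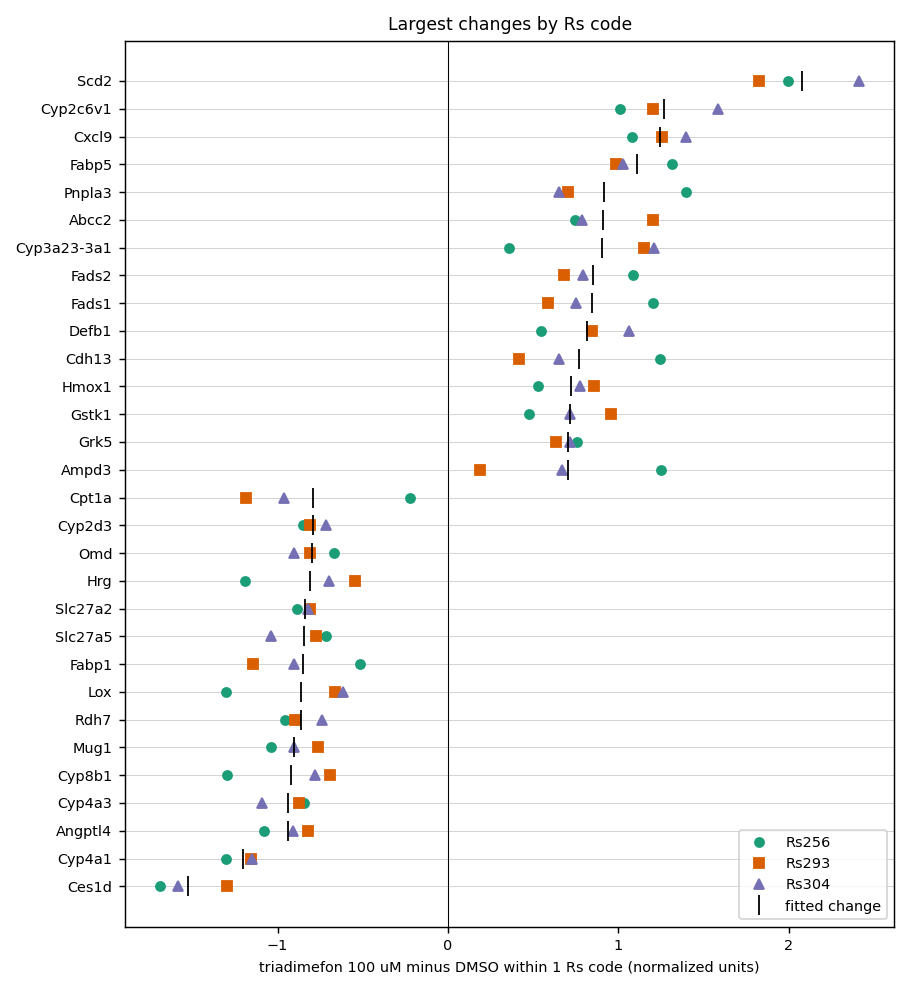
Triadimefon 100 uM minus DMSO within each code (units, x axis) for the 15 largest rises and 15 largest falls among the called genes whose 3 codes share a sign. The vertical ticks mark the fitted change. Scd2 lies far to the right in every code, while Ampd3, Cpt1a and Cyp3a23-3a1 are spread widely by code.

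Of 158 genes described by rule, 142 were called against DMSO. Of these 142, 46 were also called with no replicate block, 62 with the values as deposited and 79 without the arrays of Rs304. Scd2, Fads1, Fads2, Fabp5, Pnpla3, Acat2, Cyp2c6v1, Abcc2, Cxcl9, Cdh13, Ces1d, Fgf21, Cyp2j3 and C6 were called under all 17 planned settings, the main one included. With the values as deposited and no replicate block together, a setting added after seeing the data, 6 of the 142 were called: Scd2, Fads2, Pnpla3, Acat2, Ces1d and C6. The other 8 of these 14 missed the threshold there, with adjusted p from 0.0587 (Cxcl9 and Fads1) to 0.347 (Cyp2c6v1) in limma. Where a called gene had further probe sets, 37 of 38 had the same sign and 29 were called the same way, with 0 called the opposite way.

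The lower doses gave fewer calls. Against DMSO 1 gene was called at 10 uM, Cyp2c6v1 (0.00953%), 110 at 30 uM (1.05%) and 1239 at 100 uM. The doses share their DMSO arrays. Scd2 averaged 0.514 ± 0.431 units with DMSO, 1.52 ± 0.308 at 10 uM, 2.24 ± 0.299 at 30 uM and 2.59 ± 0.131 at 100 uM (SD, n = 3 each). Fabp5 averaged 1.97 ± 0.132 units with DMSO, 2.25 ± 0.175 at 10 uM, 2.60 ± 0.294 at 30 uM and 3.07 ± 0.310 at 100 uM. Both rose with each dose on average, and Scd2 was called at 30 uM (1.73 units, adjusted p = 1.47e-05) but not at 10 uM (1.01 units, adjusted p = 0.0552). Within triadimefon alone, a slope on log10 dose over 10, 30 and 100 uM was called for 307 genes (2.93%), 161 rising (1.53%) and 146 falling (1.39%) with dose. It was called for 8 genes with no replicate block (0.0763%), 15 with the values as deposited and 12 without the arrays of Rs304. Per log10 step the slope of Scd2 was 1.07 (SE 0.185, adjusted p = 0.00399), that of Fads2 0.67 (SE 0.0680, adjusted p = 5.23e-06) and that of Fabp5 0.82 (SE 0.118, adjusted p = 0.000675). The slope of Acat2 was 0.39 (adjusted p = 0.00206), of Insig1 0.28 (adjusted p = 0.0185), of Abcc2 0.70 (adjusted p = 0.0125) and of Cxcl9 0.64 (adjusted p = 0.0382). Falling slopes were called for Ces1d at -0.82 (adjusted p = 0.0269), Angptl4 at -0.55 (adjusted p = 0.0127), Fgf21 at -0.54 (adjusted p = 0.00579), Mug1 at -0.75 (adjusted p = 0.0132) and Hrg at -0.57 (adjusted p = 0.0136). Among these, Acat2, Fads2 and Fabp5 kept a called slope with no replicate block.

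Cyp3a23-3a1 averaged 2.78 ± 0.464 units with DMSO, 3.52 ± 0.142 at 10 uM, 3.66 ± 0.105 at 30 uM and 3.69 ± 0.0319 at 100 uM (SD, n = 3 each). Ugt2b1 averaged 2.45 ± 0.127 units with DMSO, 2.98 ± 0.0798 at 10 uM, 3.10 ± 0.138 at 30 uM and 3.01 ± 0.168 at 100 uM. Cyp2c6v1 averaged 1.42 ± 0.502 units with DMSO, 2.26 ± 0.484 at 10 uM, 2.47 ± 0.488 at 30 uM and 2.69 ± 0.222 at 100 uM. For Cyp3a23-3a1 and Ugt2b1 the means at 10, 30 and 100 uM lay closer to each other than to DMSO, although neither was called at 10 uM (adjusted p = 0.177 and 0.0552), and their slopes over the doses were 0.17 (adjusted p = 0.629) and 0.03 (adjusted p = 0.935). The slope of Cyp2c6v1 was 0.43 (adjusted p = 0.0656), that of Cyp3a2 0.30 (adjusted p = 0.273), and those of Cyp4a1 and Cyp4a3 were -0.58 (adjusted p = 0.116) and -0.51 (adjusted p = 0.0875). A slope that misses the threshold does not show that the level is flat: the 95% interval for Cyp3a23-3a1 ran from -0.15 to 0.48 units. The positive controls, which share the DMSO arrays, called 2 genes (phenobarbital, 0.0191%) and 3 genes (PCN, 0.0286%). Cyp2c6v1 changed by 1.28 units with phenobarbital (adjusted p = 3.77e-06) and by 1.22 units with PCN (adjusted p = 9.83e-05), beside 1.27 with triadimefon, and Ugt2b1 by 0.71 and 0.68 units, beside 0.56 with triadimefon.

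**Figure D4:**
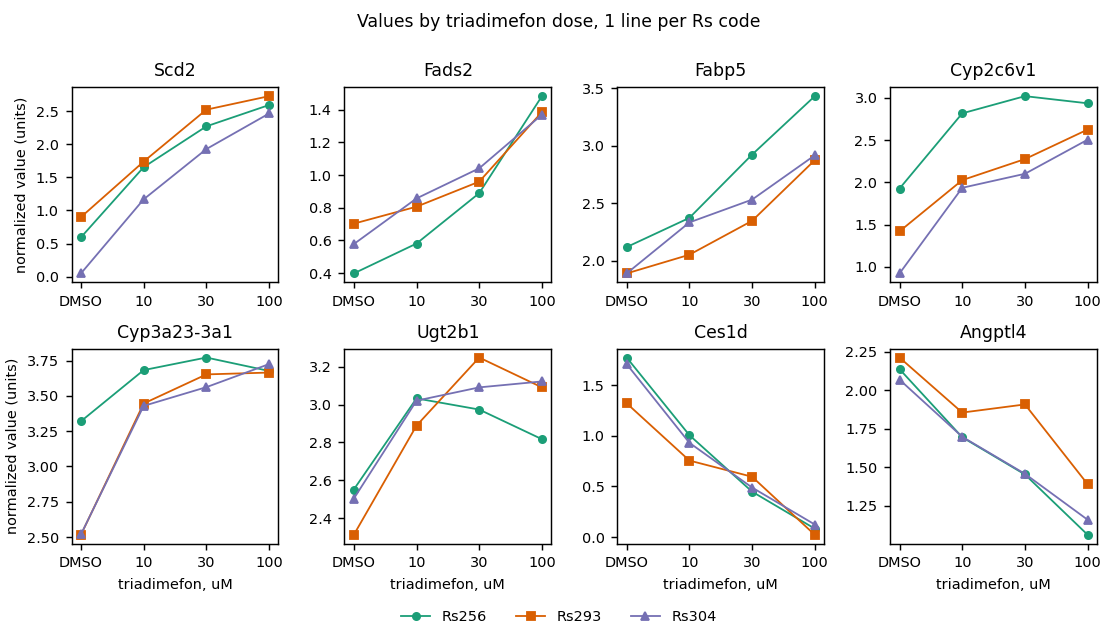
Values (units, y axis) of 8 genes on the arrays of DMSO and of triadimefon at 10, 30 and 100 uM (x axis, doses spaced evenly, which is close to a log scale for the 3 doses), 1 line per code. Scd2, Fads2 and Fabp5 climb to 100 uM, Cyp3a23-3a1 and Ugt2b1 stand at similar levels at 10, 30 and 100 uM, and Ces1d and Angptl4 descend.

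Triadimefon was set against the other triazoles at the same dose and time in 2 pairs, with p adjusted over all genes within each pair. Triadimefon carries a ketone beside its triazole ring, propiconazole a dioxolane ring and myclobutanil a nitrile group. Between triadimefon and propiconazole 481 genes were called (4.59%), 216 higher (2.06%) and 265 lower (2.53%) with triadimefon. That split became 12 higher and 57 lower on the deposited scale, 13 and 75 when array medians were centred, and 9 and 51 after centring and scaling. Fitted with no replicate block, 53 were called (0.505%), and without the arrays of Rs304 46. PPARalpha targets and fatty acid oxidation genes were less low with triadimefon: 7 of 17 and 11 of 19 were called higher than with propiconazole and none lower. List counts for this pair, here and below, come from the main fit alone. They were not repeated on the deposited scale, where only 12 of all genes tested were called higher. Cyp4a3 stood at 1.88, 1.86 and 1.80 units with triadimefon, against 0.843, 0.718 and 0.754 units with propiconazole, a difference of 1.07 (95% interval 0.73 to 1.42, adjusted p = 0.000287). Eci1 stood at 2.20, 2.38 and 2.51 units with triadimefon, against 1.27, 1.23 and 1.49 units with propiconazole, a difference of 1.03 (95% interval 0.87 to 1.19, adjusted p = 8.2e-09). Angptl4 stood at 1.06, 1.39 and 1.16 units with triadimefon, against 0.286, 0.313 and 0.250 units with propiconazole, a difference of 0.92 (95% interval 0.68 to 1.16, adjusted p = 3.26e-05). The arrays of the compounds did not overlap for these 3 genes, all of which were called with no replicate block too. The same held in direction for Cyp4a1, at 0.70 (95% interval 0.29 to 1.12, adjusted p = 0.0439), and for Creb3l3, a liver transcription factor of fasting, at 0.99 (95% interval 0.65 to 1.34, adjusted p = 0.000834), neither of which was called with no replicate block.

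Cxcl9 was higher with triadimefon, at 1.33, 1.80 and 2.04 units with triadimefon, against 0.822, 0.715 and 1.17 units with propiconazole, a difference of 0.82 (95% interval 0.47 to 1.17, adjusted p = 0.00439). Rarres2, the adipokine chemerin, differed by 0.76 (95% interval 0.57 to 0.95, adjusted p = 2e-05) and Ubd, a ubiquitin-like modifier induced by interferon gamma, by 0.73 (adjusted p = 0.00126). Sfn was lower with triadimefon, at 0.747, 0.0711 and 0.689 units with triadimefon, against 1.64, 1.15 and 1.45 units with propiconazole, a difference of -0.91 (95% interval -1.05 to -0.76, adjusted p = 8.2e-09). Every triadimefon array lay below every propiconazole array for Sfn. Serpina3c differed by -0.73 (95% interval -0.89 to -0.57, adjusted p = 3.15e-06), its relative Serpina3l by -0.68 (95% interval -0.84 to -0.52, adjusted p = 1.14e-05), and Il1r2, the decoy receptor of interleukin 1, by -0.70 (95% interval -1.04 to -0.36, adjusted p = 0.0133). Dnase2b, a lysosomal nuclease, differed by -0.56 (95% interval -0.78 to -0.34, adjusted p = 0.00248), Oxct1, which uses ketone bodies, by -0.58 (95% interval -0.80 to -0.36, adjusted p = 0.00186), Sdcbp2, a syntenin, by -0.58 (95% interval -0.74 to -0.43, adjusted p = 3.26e-05), and Gstk1 by -0.56 (95% interval -0.82 to -0.30, adjusted p = 0.00865). Lysosomal genes were called lower with triadimefon than with propiconazole in 7 of 25 cases and higher in none. No sterol synthesis gene of 17 and no PXR target of 8 was called between these compounds, and the median differences were -0.08 and 0.00 units. With 4.59% called over all genes tested, lists of this size can easily hold no call. The absence of calls therefore does not show that the compounds act alike on these genes.

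Between triadimefon and myclobutanil 1 gene was called (0.00953%), with 687 at an unadjusted p under 0.05, and none was called with no replicate block (200 at an unadjusted p under 0.05). The 1 gene was Fads2, at 1.48, 1.39 and 1.37 units with triadimefon, against 0.967, 1.01 and 1.05 units with myclobutanil, a difference of 0.40 (95% interval 0.26 to 0.54, adjusted p = 0.0358). Every triadimefon array lay above every myclobutanil array. Fads2 was not called between these compounds with the values as deposited, nor with the arrays of the 2 groups alone. Other genes were not called between these compounds: Eci1 differed by 0.35 (95% interval 0.18 to 0.51, adjusted p = 0.184), Cxcl9 by 0.53 (95% interval 0.18 to 0.87, adjusted p = 0.528), Cyp4a3 by 0.28 (95% interval -0.06 to 0.62, adjusted p = 0.825) and Sfn by 0.20 (95% interval 0.06 to 0.35, adjusted p = 0.606). For Angptl4 the difference was 0.03 (95% interval -0.21 to 0.27, adjusted p = 0.988). A p that misses the threshold does not show that the compounds act alike.

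**Figure D5:**
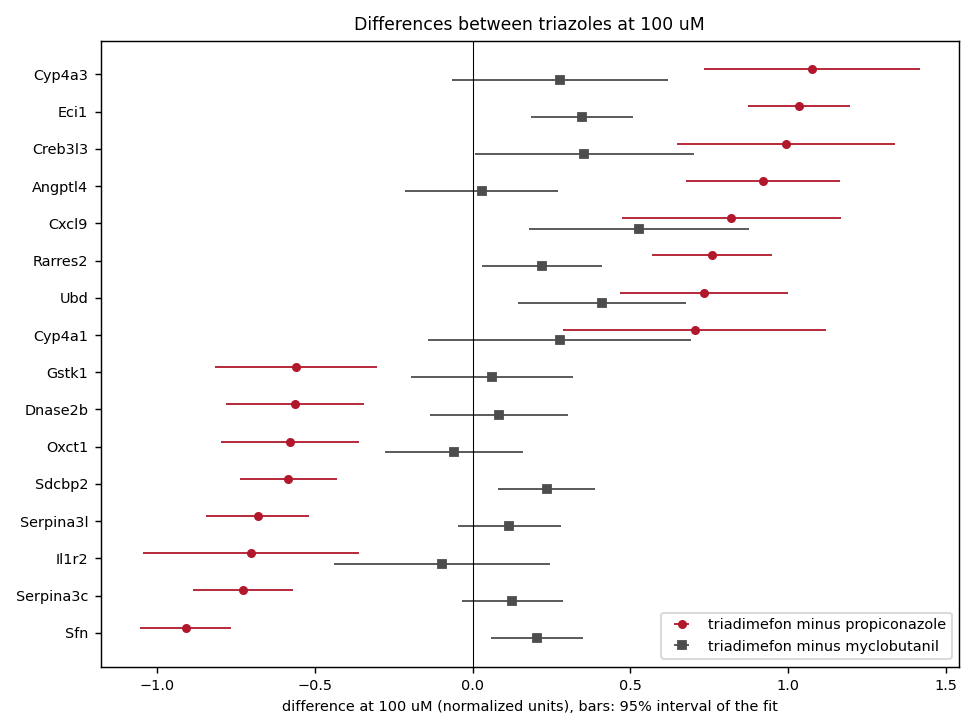
Differences at 100 uM (units, x axis) between triadimefon and propiconazole (circles) and between triadimefon and myclobutanil (squares), with 95% intervals of the fit, for the 8 largest called differences from propiconazole in each direction. Cyp4a3, Eci1, Creb3l3 and Angptl4 lie 0.92 to 1.07 units above propiconazole, and Sfn lies 0.91 units below it.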

How the data were processed

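RNA of primary rat hepatocytes was measured on Affymetrix rat expression arrays, 1 array per sample. The deposited values are scores, log-like with an unstated base, and what the authors did to make them is not given in the sources used here. Array spread as deposited (SD) ran from 0.646 to 0.941 units and medians from -0.0338 to 0.0223. Depth does not apply to arrays, and their number limits the precision.

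The scores were quantile-normalized. Of 31099 probe sets 20826 named 1 gene, and a gene was read from its probe set with the highest mean, giving 14217 genes. A gene was tested if it lay above the array median on at least 2 of 35 arrays, which kept 10490. limma 3.58.1 (R 4.3.3) fitted 1 mean per group and the code as a replicate block over all 35 arrays, with Benjamini-Hochberg adjustment. Exact permutation tests used scipy 1.17.1. The pairing comes from the codes in the titles: deviations of arrays with 1 code correlated across genes between triadimefon and DMSO (r = 0.692, 0.546 and 0.659), and the median was 0.634 over 187 pairs with 1 code and -0.355 over 374 pairs with different codes. Deviations were taken from group means, so positive values within codes force negative ones between codes. The negative median is therefore no further sign of pairing. No arrays of a group held identical values.

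Genes were named by rule: the 15 largest rises and falls among called genes with 1 sign in all codes, up to 5 called members of each list with the lowest adjusted p, 29 genes always given where measured (23 were), and the 8 largest called differences in each direction from each other triazole. The comparison, its lists and rules were chosen with earlier results of these data known. On simulated data with 200 changed genes the comparison with DMSO recovered 100% of changes of 0.5 units, with 10 false calls. The noise was drawn independently for each gene from the same model, with no normalization step, so this checks only that the fit runs correctly. Changes below 0.5 units were not simulated, while the called genes had a median absolute change of 0.214 units. The simulation therefore does not measure how reliable the calls are. Alternatives varied the block, the normalization, the filter, the arrays in the fit, the probe-set rule, limma's prior and each replicate. A fit on the values as deposited without the block and a fit without the array of the widest spread were added after seeing the data. Levels of different genes were not compared, since probe sets differ in brightness.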

Additional observations from a re-analysis of the deposited data

Results flagged for a closer look

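Among 3738 tested probe sets that name no gene or several genes, 290 were called against DMSO (7.76%), 98 higher and 192 lower. Over all probe sets of the same fit the share was larger, with 1791 of 17973 called, 846 higher and 945 lower. These probe sets lie outside the gene comparison, and 4 of those naming no gene are given here. Probe set 1368718_at stood at 1.70, 2.67 and 2.24 units with triadimefon, against 1.20, 1.29 and 0.674 units with DMSO, a change of 1.15 (limma, adjusted p = 4.23e-05). Probe set 1388166_at stood at 1.88, 0.690 and 1.15 units with triadimefon, against 0.460, -0.0406 and 0.0117 units with DMSO, a change of 1.10 (adjusted p = 3.43e-06). Both were higher on every triadimefon array than on any DMSO array. Probe set 1370310_at stood at 1.28, 1.95 and 1.95 units with triadimefon, against 2.90, 3.15 and 3.27 units with DMSO, a change of -1.38 (adjusted p = 6.99e-08). Probe set 1374241_at stood at 0.387, 0.728 and 0.699 units with triadimefon, against 1.11, 1.15 and 1.25 units with DMSO, a change of -0.57 (adjusted p = 0.00059). Both were lower on every triadimefon array than on any DMSO array.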

How the results depend on the processing

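Counts of called genes depended on the processing, and the cause was not tested. With no replicate block 192 genes were called against DMSO, 53 between triadimefon and propiconazole, 0 between triadimefon and myclobutanil and 8 for the dose slope (main counts 1239, 481, 1 and 307). In that order of comparisons, the values as deposited gave 287, 69, 0 and 15, median centring 343, 88, 0 and 19, centring and scaling 266, 60, 0 and 14, and the arrays of the groups compared alone 778, 276, 0 and 475. Each probe set as a feature gave 1791, 939, 3 and 505 calls, with more features tested. With no filter the comparison with myclobutanil gave 0. Without the array of the widest spread, that of propiconazole at 30 uM in Rs293, the counts were 1292, 518, 0 and 344. The values as deposited with no replicate block gave 14, 7, 0 and 0. Leaving out a code, or an array of the groups compared, gave 298 to 1032 calls against DMSO, 46 to 962 against propiconazole, 0 to 19 against myclobutanil and 12 to 294 for the slope. The lowest counts against DMSO, against propiconazole and for the slope came without the arrays of Rs304. Without the arrays of Rs256 675, 638, 0 and 72 genes were called, and without those of Rs293 1028, 149, 19 and 182. Single arrays also moved counts by over 1.5 times: without the DMSO array of Rs256 762 genes were called against DMSO. Against propiconazole, leaving out the triadimefon array of Rs293 or Rs304 gave 260 or 200, and the propiconazole array of Rs256 or Rs293 962 or 241. Against myclobutanil, leaving out the triadimefon array of Rs293 gave 17 and the myclobutanil array of Rs256 4, with 0 without the triadimefon array of Rs256 or the myclobutanil array of Rs293 or Rs304. For the slope, leaving out the 100 uM array of Rs256 or Rs304 gave 88 or 92, and the 10 uM array of Rs256, Rs293 or Rs304 gave 85, 36 or 132. Some small falls of bright genes turned: Hp read 0.0268 units as deposited (with and without the replicate block), 0.0205 after centring and 0.13 after centring and scaling. Hpx read 0.0269 (with and without the block), 0.0206 and 0.13, and Rbp4, Ahsg and Uqcrfs1 read 0.0394, 0.0378 and 0.00019 after centring and scaling. No detection calls were used, so the filter on the array median is the only bound on dim genes.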
